A study of Mus musculus with 3 samples.

Results

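The BCL2 family genes described here are 10 genes that hold a cell alive or let it die through its mitochondria. They are Bcl2a1a, Bcl2a1b, Bcl2a1d, Mcl1, Bcl2l1 and Bcl2, which code for pro-survival proteins, Bax and Bak1, which code for the effectors, and Bcl2l11 and Bid, which code for BH3-only proteins. They were chosen by symbol as well-known members of the family, and all 10 were found among the 55536 mouse genes of the deposited gene tables, of which 22028 are protein-coding. RNA was measured by total RNA sequencing after ribosomal RNA depletion, in the cytosolic fraction of bone-marrow-derived macrophages of C57BL/6J mice. The cells received 100 ng/ml Lipid A, the membrane anchor of bacterial lipopolysaccharide, for 12 h, were kept without it for 12 h, and were then stimulated anew with the same dose for 120 min. The labels give 1 group of 3 biological replicates with no untreated counterpart, so no level below can be called a response to Lipid A. The labels give no sex or age, and the replicates share 1 donor entry, so their spread may be technical.

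In the mitochondrial pathway of apoptosis, BAX and BAK open the outer mitochondrial membrane and cytochrome c leaves it to switch on caspases. Pro-survival relatives such as BCL2, BCL-XL, MCL1 and A1 hold the effectors in check, and BH3-only proteins such as BIM and BID bind the pro-survival proteins or activate the effectors. In mouse macrophages Bcl2a1 genes and Mcl1 are known to be induced by bacterial products, and mouse chromosome 9 carries several near-identical Bcl2a1 copies that stand for the human gene BCL2A1.

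Values are TPM of the deposited gene tables, a length-normalised share of all transcripts, unless another scale is named, and ± is the SD over 3 libraries. A second deposited quantification of the same libraries was summed per gene. Depth was 29376859 expected counts in replicate 1, 64822118 in replicate 2 and 37665844 in replicate 3. All libraries had each of 12 macrophage markers at 1 TPM or more, with sums between 6682 and 7518 TPM, while the neutrophil markers, of which 3 of 10 reached 1 TPM, summed to between 5.91 and 9.66 TPM and Cxcr2 was listed at 0 in the gene tables. Of the endothelial markers 2 of 5, Kdr and Vwf, reached 1 TPM in all libraries, and the list summed to between 4.66 and 11 TPM with Tek listed at 0. No marker of T and NK cells, B cells, mast cells, dendritic cells, fibroblasts or erythroid cells reached 1 TPM in all libraries. The B cell marker Cd79b, at 1.1, 0.91 and 1.44 TPM, and the dendritic cell marker Ccr7, at 1.35, 0.94 and 1.05 TPM, missed it in replicate 2 alone. Every other marker of these lists stayed below 1 TPM in each library. Replicate 3 stood apart in nuclear and mitochondrial RNA. Malat1, a nuclear noncoding RNA, had 191, 133 and 952 TPM in replicates 1, 2 and 3, and the mitochondrial-encoded mRNAs summed to 1536, 1245 and 3953 TPM. The share of TPM in protein-coding genes was 32.5% in replicate 1, 26.5% in replicate 2 and 27.1% in replicate 3, so the order of the libraries depends on the scale. In bulk RNA, fewer cells of a type and less RNA per cell cannot be told apart.

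The Bcl2a1 copies differ in so few bases that their separate levels rest on short stretches of sequence. The stretch of their coding sequence with the most differences is its first 90 bases, in the first coding exon, shown here from GENCODE M21 with the 6 bases that differ among the copies in capitals. It lies at chr9:88957051-88957140 (plus strand) in Bcl2a1a, chr9:89199360-89199449 (plus strand) in Bcl2a1b and chr9:88731630-88731719 (minus strand) in Bcl2a1d on mm10.
Bcl2a1a: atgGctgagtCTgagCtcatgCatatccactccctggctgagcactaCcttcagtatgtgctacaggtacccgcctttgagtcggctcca
Bcl2a1b: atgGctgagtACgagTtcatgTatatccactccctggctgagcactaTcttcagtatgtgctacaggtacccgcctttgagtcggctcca
Bcl2a1d: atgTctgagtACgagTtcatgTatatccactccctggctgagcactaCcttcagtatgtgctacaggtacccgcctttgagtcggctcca

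Each copy codes for 172 amino acids in 516 bases, and 12 of these bases differ among the 3 copies. Bcl2a1a alone differs at 6 of them, Bcl2a1b alone at 5 and Bcl2a1d alone at 1. The coding sequences of Bcl2a1a and Bcl2a1b were 97.9% identical, those of Bcl2a1a and Bcl2a1d 98.6% and those of Bcl2a1b and Bcl2a1d 98.8%. Of all stretches of 31 bases in the transcripts, 20.4% of those of Bcl2a1a, 11.2% of those of Bcl2a1b and 10.9% of those of Bcl2a1d occur in no other annotated gene. At 100 bases these shares are 56.5%, 43.2% and 45.3%. The share of Bcl2a1b is lowered by Gm29094, an annotated protein-coding gene that overlaps its exons on the same strand and had 3.47, 3.20 and 2.38 TPM in replicates 1, 2 and 3. Against the other Bcl2a1 genes alone, 26.7% of its 31-base stretches and 68.9% of its 100-base stretches are its own.

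All Bcl2a1 copies were present in all libraries, and Bcl2a1b was the highest of the 10 genes. Bcl2a1b (ENSMUSG00000089929.1, chr9:89199209-89207827, plus strand) had 281, 267 and 214 TPM in replicates 1, 2 and 3, a mean of 254 ± 35.3 TPM and rank 134 among the 22028 protein-coding genes. Bcl2a1d (ENSMUSG00000099974.1, chr9:88723285-88731914, minus strand) had 187, 163 and 126 TPM, a mean of 159 ± 30.7 TPM and rank 262. Bcl2a1a (ENSMUSG00000102037.1, chr9:88956900-88962419, plus strand) had 57.7, 63.1 and 53.4 TPM, a mean of 58.1 ± 4.87 TPM and rank 782. The ranges of the 3 copies did not overlap in the gene tables, and replicate 3 was the lowest library for each.

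Together the copies made 526, 493 and 394 TPM in replicates 1, 2 and 3, a sum of 471 ± 68.9 TPM. Bcl2a1b took 53.4%, 54.1% and 54.3% of that sum, Bcl2a1d 35.6%, 33.1% and 32.1%, and Bcl2a1a 11.0%, 12.8% and 13.6%. The split was nearly the same in every library, although the share of Bcl2a1a was lowest and that of Bcl2a1d highest in replicate 1. In the second quantification Bcl2a1b took 53.5%, 54.0% and 54.3%, Bcl2a1d 35.7%, 33.6% and 32.4%, and Bcl2a1a 10.9%, 12.4% and 13.3% of the summed TPM. The mean share of Bcl2a1b was 53.9 ± 0.483% in the gene tables and 53.9 ± 0.414% in the second quantification, and for each copy the quantifications differed by less than the spread between libraries.

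The level on the deposited TPM scale was not shared between the quantifications. The copies summed to 210, 271 and 181 TPM in the second quantification, a mean of 221 ± 46.0 TPM, with replicate 2 and not replicate 1 as the highest library. There the share of TPM in protein-coding genes was 13.4%, 15.4% and 13.4%. On TPM rescaled so that only mRNAs and long noncoding RNAs fill the total, the gene tables gave sums of 1588, 1811 and 1414 TPM. The second quantification gave 1526, 1701 and 1304 TPM on this scale, with replicate 2 highest in both. The rescaled means, 1604 ± 199 and 1510 ± 199 TPM, differed by less than 1 SD. The posterior SD that the authors deposited with each expected count was 0.804% to 1.28% of the count for Bcl2a1a, 0.174% to 0.260% for Bcl2a1b and 0.339% to 0.509% for Bcl2a1d, well under the spread of TPM between libraries. The expected counts behind these values ran from 1590 for Bcl2a1a in replicate 1 to 19520 for Bcl2a1b in replicate 2.

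**Figure D1:**
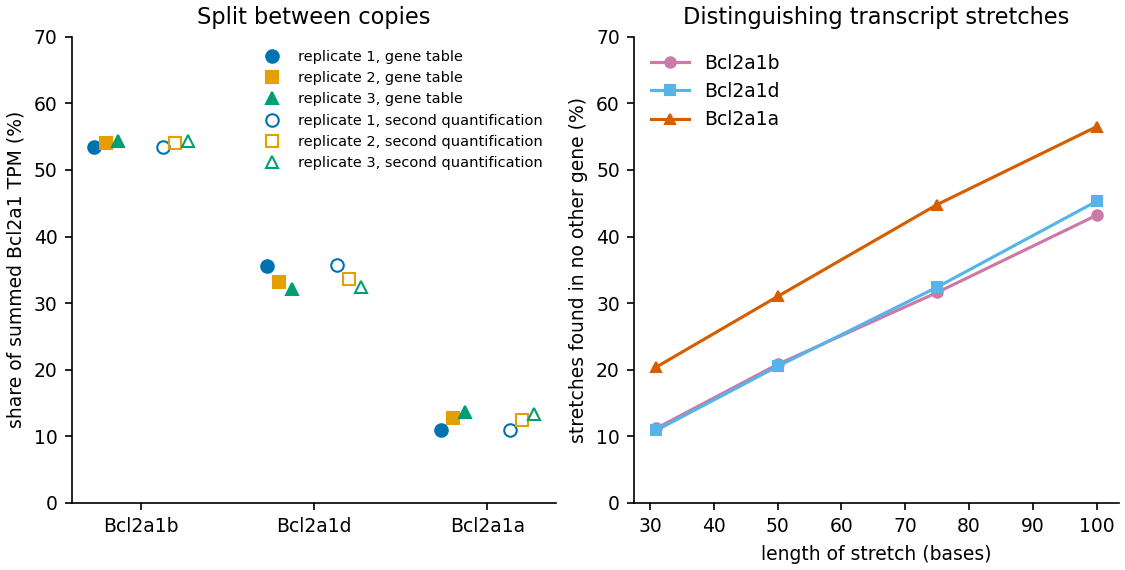
Left, share of each Bcl2a1 copy in the summed TPM of the 3 copies (percent) for each library, in the gene table (filled) and the second quantification (open). Bcl2a1b takes 53.4% to 54.3%, Bcl2a1d 32.1% to 35.7% and Bcl2a1a 10.9% to 13.6% in both. Right, percent of transcript stretches of 31, 50, 75 and 100 bases that occur in no other annotated gene, which grows with the length of the stretch and is highest for Bcl2a1a.

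Bcl2a1c, another copy on chromosome 9 that is not among the 10 genes, was where the quantifications parted. It was listed at 0.68, 1.78 and 0.98 TPM in the gene tables, from 7, 50 and 15 expected counts, and at 0 in all 3 libraries of the second quantification. Of its 31-base stretches 69.1% are found in no other gene.

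The promoter windows of the copies are as alike as their coding sequences. In RefSeq windows of 250 bases before and 50 after the annotated start (GRCm38.p6), the aligned bases of Bcl2a1a and Bcl2a1b were 99.2% identical, those of Bcl2a1a and Bcl2a1d 98.0% and those of Bcl2a1b and Bcl2a1d 98.8%. The 120 bases around the motif matches are shown because the copies differ there in the number of matches. Capitals first mark TGANTCA, a loose pattern of AP-1 factors in which N is any base, and which reads TGAATCA in each copy. They then mark GAGGAAG, a core pattern of the myeloid factor PU.1, which overlaps itself in the first 2 sequences. They lie at chr9:88956760-88956879 (plus strand), chr9:89199069-89199188 (plus strand) and chr9:88731885-88732004 (minus strand).
Bcl2a1a: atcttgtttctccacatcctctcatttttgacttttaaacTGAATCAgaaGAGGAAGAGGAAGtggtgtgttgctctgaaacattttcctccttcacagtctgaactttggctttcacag
Bcl2a1b: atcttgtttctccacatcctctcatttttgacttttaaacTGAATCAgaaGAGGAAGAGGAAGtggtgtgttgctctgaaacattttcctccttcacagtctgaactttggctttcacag
Bcl2a1d: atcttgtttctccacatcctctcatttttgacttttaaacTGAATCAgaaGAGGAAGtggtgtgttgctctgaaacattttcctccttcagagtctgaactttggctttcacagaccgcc

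Bcl2a1a and Bcl2a1b each had 2 overlapping matches of GAGGAAG, and Bcl2a1d had 1. The part of these matches in the RNA levels was not tested. All 10 genes matched the RefSeq table, with 13 windows, and both strands were searched. GAGGAAG was in 5 of the 13 windows, those of Bak1, Bcl2, Bcl2a1a, Bcl2a1b and Bcl2a1d, and in 13.6% of all 32851 windows. TGANTCA was in the windows of the 3 Bcl2a1 copies and in 7.81% of all windows. A kappaB pattern was in a window of Bcl2l1 and in 4.51% of all windows, while TATAAA was in 0 of the 13 and in 13.6% of all. An interferon response pattern was also in 0 of the 13 and in 3.44% of all. A match is a description of these letters and not a site shown to be bound.

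Mcl1, a short-lived pro-survival protein, was the other abundant guard. Mcl1 (ENSMUSG00000038612.16, chr3:95658788-95663176, plus strand) had 183, 158 and 156 TPM in replicates 1, 2 and 3, a mean of 165 ± 15.2 TPM and rank 250 among protein-coding genes. Its range lay wholly below that of Bcl2a1b in the gene tables, by 0.61 ± 0.15 on the log2 TPM scale. In the second quantification the ranges overlapped, with 102, 114 and 95.2 TPM for Mcl1 and 112, 146 and 98.3 TPM for Bcl2a1b in replicates 1, 2 and 3, although Bcl2a1b was the higher within each library. The range of Mcl1 overlapped that of Bcl2a1d, which it exceeded in 1 of 3 libraries in the gene tables and in 3 of 3 in the second quantification. The summed Bcl2a1 copies exceeded Mcl1 in every library, by log2 ratios of TPM of 1.52, 1.65 and 1.34 in replicates 1, 2 and 3 and by a mean of 1.08 ± 0.16 in the second quantification.

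The Mcl1 level depended on how reads were divided between its transcripts. GENCODE M21 gives it Mcl1-201, with 331 codons in 3418 bases, and Mcl1-202, with 285 codons in 858 bases, in which 138 bases of the first exon are spliced out. Only 24 of the 828 stretches of 31 bases in Mcl1-202 are absent from Mcl1-201, and they make up the 54 bases across that junction, chr3:95658884-95658908 joined to chr3:95659047-95659075 (mm10, plus strand). They are shown because they alone set the short transcript apart, with the 5 bases on each side of the junction in capitals.
Mcl1-202: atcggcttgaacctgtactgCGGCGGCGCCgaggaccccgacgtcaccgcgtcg

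Mcl1-202 took 0%, 29.5% and 17.1% of the Mcl1 TPM in replicates 1, 2 and 3 in the first quantification, against 33.0%, 52.5% and 41.7% in the second. Replicate 1 was the lowest and replicate 2 the highest library in both, but the ranges of the quantifications did not overlap. The effective length that the authors deposited for the gene was 3197, 2451 and 2756 bases, so that the same reads gave more TPM where the short transcript was assigned more. On CPM, counts relative to a library size scaled by TMM, with no length in the scale, Mcl1 had 944, 735 and 757 CPM, while rescaled TPM stood at 552, 579 and 559. Replicate 1 was the highest library on the first of these scales and the lowest on the other. On rescaled TPM of the second quantification Mcl1 had 738, 713 and 685, with replicate 1 the highest. On CPM the summed Bcl2a1 copies lay below Mcl1 in every library, at a mean log2 ratio of -0.68 ± 0.30.

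Bcl2l1, the gene of BCL-XL, was lower than these, and Bcl2 was close to the limit of 1 TPM. Bcl2l1 (ENSMUSG00000007659.18, chr2:152780668-152831728, minus strand) had 40.6, 35.4 and 31 TPM in replicates 1, 2 and 3, a mean of 35.7 ± 4.81 TPM and rank 1254. Its TPM came mostly from Bcl2l1-202, at 46.4 ± 6.32%, and Bcl2l1-201, at 42.7 ± 6.70%, which both code for 233 amino acids, the length of BCL-XL. In the second quantification they held 49.8 ± 5.12% and 32.5 ± 5.18%. No stretch of 31 bases of Bcl2l1-202 is its own among the transcripts of the gene, so the split between them has little sequence to rest on.

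Bcl2, the gene that named the family (ENSMUSG00000057329.7, chr1:106538178-106714274, minus strand), had 1.00, 0.88 and 0.79 TPM in replicates 1, 2 and 3, a mean of 0.89 ± 0.105 TPM and rank 9123. It was the lowest of the 10 genes in every library, at a log2 TPM 3.78 ± 0.14 below Bid, the next above it. The deposited interval around its posterior mean ran from 0.874 to 1.10 TPM in replicate 1, from 0.805 to 0.933 in replicate 2 and from 0.693 to 0.878 in replicate 3, so all 3 intervals overlapped. Its long transcript Bcl2-201, of 236 codons, made up 95.0%, 97.7% and 79.7% of the gene's TPM in replicates 1, 2 and 3. The rest was Bcl2-202, of 199 codons and 1 exon, at 5%, 2.27% and 20.3%, and at 10.9%, 8.87% and 31.8% in the second quantification. Of the 2841 bases of Bcl2-202, 69.2% lie outside the exons of Bcl2-201. Its share was highest in replicate 3, where Malat1 was also highest, and the part of nuclear RNA in this was not tested.

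Both effector genes were present at levels between those of the abundant and the scarce pro-survival genes. Bak1 (ENSMUSG00000057789.14, chr17:27019810-27029009, minus strand), whose protein sits in the outer mitochondrial membrane, had 56.4, 57.9 and 53.6 TPM in replicates 1, 2 and 3, a mean of 56 ± 2.21 TPM and rank 814. Bax (ENSMUSG00000003873.11, chr7:45461697-45466898, minus strand), whose protein moves there from the cytosol, had 47.7, 43.8 and 39.2 TPM, a mean of 43.6 ± 4.25 TPM and rank 1038. With all transcripts of each gene counted, Bak1 was the higher in every library, with no overlap in the gene tables, by 0.37 ± 0.11 on the log2 TPM scale. Bak1 made 56.3 ± 1.87% of the effector TPM. In the second quantification it was again the higher within each library but the ranges overlapped, with 23.4, 33.5 and 27.3 TPM for Bak1 and 20.5, 25.4 and 19.6 TPM for Bax. The Bak1 range in the gene tables overlapped that of Bcl2a1a, and the Bax range that of Bcl2l1, which Bax exceeded within each of the 3 libraries.

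Much of the Bak1 RNA was assigned to transcripts that the annotation marks for nonsense-mediated decay, the pathway that degrades mRNAs with an early stop codon. Bak1-201 and Bak1-204, both so marked, together took 65.6%, 74.4% and 78.8% of the Bak1 TPM in replicates 1, 2 and 3, and 53.3%, 63.9% and 66.8% in the second quantification. The protein-coding Bak1-202, of 209 codons, took 20.8%, 7.52% and 6.89%, and Bak1-203, of 146 codons, took 13.6%, 18.1% and 14.4%. Replicate 1 had the highest share of Bak1-202 in both quantifications, at 25.7% against 13.3% and 12.6% in the second. Bak1-201 and Bak1-204 have 47 of 1944 and 29 of 1928 stretches of 31 bases that no other Bak1 transcript holds, so almost all of their sequence is shared. Bax came mostly from Bax-201, of 192 codons, with 87.9 ± 1.24% of its TPM. Bax-201 had 42.6, 38.3 and 34.1 TPM in replicates 1, 2 and 3. Bak1-202 had 11.7, 4.36 and 3.69 TPM and Bak1-203 had 7.69, 10.5 and 7.69 TPM, which even together lay below Bax-201 in every library. The order of Bak1 above Bax thus held for gene totals and not for these protein-coding transcripts.

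**Figure D2:**
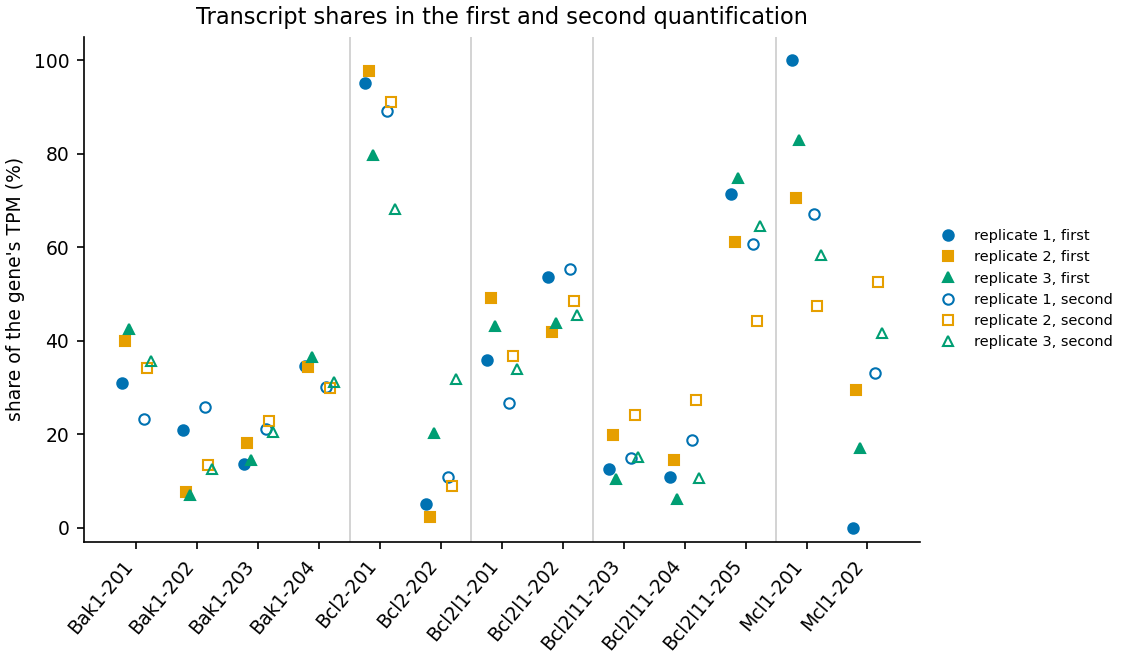
Share of the gene's TPM (percent) for transcripts of Bak1, Bcl2, Bcl2l1, Bcl2l11 and Mcl1 that averaged at least 10% in either quantification or led their gene, for each library in the first (filled) and second (open) quantification. Mcl1-202 stands at 0% to 29.5% in the first and 33.0% to 52.5% in the second, and Bcl2-202 is highest in replicate 3 in both.

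Of the BH3-only genes, Bcl2l11 had the widest spread between libraries of all 10 genes. Bcl2l11, the gene of BIM (ENSMUSG00000027381.16, chr2:128126038-128162547, plus strand), had 33.6, 28.6 and 17.1 TPM in replicates 1, 2 and 3, a mean of 26.4 ± 8.43 TPM and rank 1672. Its coefficient of variation was 31.9%, against a median of 12.7% over the 10 genes and of 13.1% over the 8612 protein-coding genes with at least 1 TPM in all libraries. Replicate 3 lay below the mean of the others by a log2 ratio of -0.86 on TPM, -0.75 on rescaled TPM and -0.75 on TMM-scaled CPM, and by -0.82 on rescaled TPM of the second quantification. The low value was present on each of these scales.

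Most Bcl2l11 RNA was assigned to Bcl2l11-205, whose 196 codons are the length of the long form BIM-EL, with 71.4%, 61.0% and 74.8% of the TPM in replicates 1, 2 and 3. Bcl2l11-203, with the 140 codons of BIM-L, took 12.6%, 19.9% and 10.5%. Bcl2l11-204, with the 110 codons of BIM-S, took 10.8%, 14.5% and 6.13%. Replicate 2 had the lowest share of the long form and the highest of the others in both quantifications, and the mean share of the long form was 56.5 ± 10.7% in the second. Every stretch of 31 bases of Bcl2l11-203 and of Bcl2l11-204 is also found in another Bcl2l11 transcript, so these shares are inferred and not read from sequence of their own.

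Bid, whose protein is cut by caspase-8 to link death receptors to mitochondria (ENSMUSG00000004446.12, chr6:120891930-120916853, minus strand), had 15.4, 11.6 and 10.1 TPM in replicates 1, 2 and 3, a mean of 12.4 ± 2.72 TPM and rank 3184. It came from 1 transcript, Bid-201 of 195 codons, at 99.3 ± 0.256% of the TPM. Bcl2l13 overlaps Bid on the opposite strand and had 6.55, 5.70 and 5.63 TPM, and Ggnbp1 overlaps Bak1 on the opposite strand with 0.15, 0.12 and 0.32 TPM. The strandedness of the libraries is not given in the sources used here, so reads of such pairs may not be told apart.

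**Figure D3:**
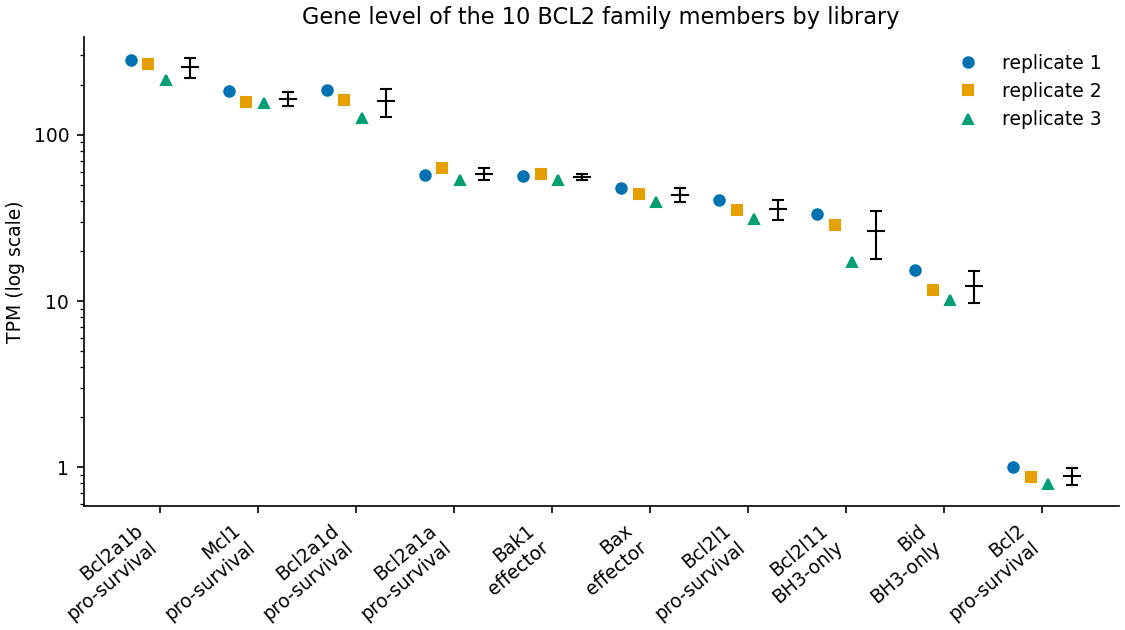
TPM of the gene table on a log scale for each of the 10 genes in replicates 1, 2 and 3, with the mean and SD (bar), in order of the mean. Bcl2a1b, Mcl1 and Bcl2a1d lie above 100 TPM in all libraries, Bcl2 lies at or below 1.00 TPM, and the replicate 3 point of Bcl2l11 lies below the others.

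Of the 10 genes, 9 reached 1 TPM in all 3 libraries, against 39.1% of protein-coding genes, and Bcl2 did not. The median over the 10 was 49.7 ± 3.05 TPM, against 8.03 TPM over the protein-coding genes that reached the limit. Since the genes were picked as well-known members of their family, nothing particular to the list follows from this.

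Summed by role, pro-survival RNA outweighed effector RNA in every library. The pro-survival genes made 751, 687 and 581 TPM in replicates 1, 2 and 3, the effectors 104, 102 and 92.8 TPM and the BH3-only genes 48.9, 40.2 and 27.2 TPM. The log2 ratio of pro-survival to effector TPM was 2.85, 2.76 and 2.65, a mean of 2.75 ± 0.10, and 2.77 ± 0.13 in the second quantification. The log2 ratio of pro-survival to BH3-only TPM was 3.94, 4.10 and 4.41 and that of effector to BH3-only TPM 1.09, 1.34 and 1.77, both highest in replicate 3, where Bcl2l11 was lowest. These are ratios of gene totals, in which the Bak1 transcripts marked for nonsense-mediated decay are counted, and they say nothing of the amounts of protein.

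The excess of pro-survival RNA rested on few genes. The Bcl2a1 copies and Mcl1 together made 94.6 ± 0.137% of the pro-survival TPM, with 69.9 ± 2.03% from the copies and 24.7 ± 1.95% from Mcl1. In the second quantification these were 64.3 ± 2.47% and 30.5 ± 2.29%. On TMM-scaled CPM, with no length in the scale, the order was reversed, with 34.7 ± 4.16% from the copies and 55.5 ± 4.82% from Mcl1. Without the copies the log2 ratio of pro-survival to effector TPM was 1.02 ± 0.09. When each gene had the same weight, as the mean of log2(TPM + 1) over each role, the difference was 0.12 ± 0.07. With a pseudocount of 0.1 it was -0.02 ± 0.08, so with Bcl2 in the list little or no excess remained at equal weight. In these equal-weight means Bcl2, at 0.89 ± 0.105 TPM, counted as much as Bcl2a1b, at 254 ± 35.3 TPM. The means were not computed without Bcl2, so they do not show that the other pro-survival genes lay near the effectors. Bcl2a1b, Mcl1 and Bcl2a1d, at means of 254, 165 and 159 TPM, lay above Bak1 and Bax, at 56 and 43.6 TPM, in every library. Bcl2a1a, at 58.1 TPM, overlapped Bak1, and Bcl2l1, at 35.7 TPM, lay below Bax in every library.

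The libraries differed beyond counting error for each of the genes, as they did for most genes. In a chi-square test of the rounded expected counts over the 3 libraries against TMM-scaled library sizes, adjusted by Benjamini-Hochberg over all genes tested, all 10 genes passed the threshold of 0.05, beside 71.6% of the 14568 genes tested. Between replicates 1 and 3 alone, 8 of the 10 passed, all but Bak1 and Bcl2a1a, beside 52.4% of genes tested that passed. Between replicates 1 and 2 alone, 8 passed, all but Bcl2 and Bcl2l1, beside 53.4% that passed. Expected counts of the near-identical Bcl2a1 copies are not independent of each other.

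Replicate 3 was the lowest library for all 10 genes on the TPM scale, against 35.1% of the 8612 protein-coding genes above the limit. On this scale the median log2 ratio of a library to the mean of the others over those genes was 0.18, -0.13 and -0.08 for replicates 1, 2 and 3. Replicate 3 was lowest for 7 of the 10 on rescaled TPM, against 22.9%, and for 8 of the 10 on TMM-scaled CPM, against 39.0%. The exceptions were Mcl1, Bak1 and Bcl2a1a on rescaled TPM and Mcl1 and Bcl2a1a on TMM-scaled CPM. In the second quantification replicate 3 was lowest for 7 on rescaled TPM, against 20.2%, and for all 10 on TMM-scaled CPM, against 56.6%. The Bcl2a1 copies share most of their sequence, so they do not count as independent genes in these numbers. Replicate 1 was highest for 8 of the 10 on TPM, against 63.2% of those protein-coding genes. Replicate 2 was highest for 9 on rescaled TPM, against 38.7%, and for 7 on TMM-scaled CPM, against 42.6%, so which library was highest depended on the scale. Malat1 and the mitochondrial-encoded mRNAs, given above, were highest in replicate 3, and their part in the low values was not tested.

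**Figure D4:**
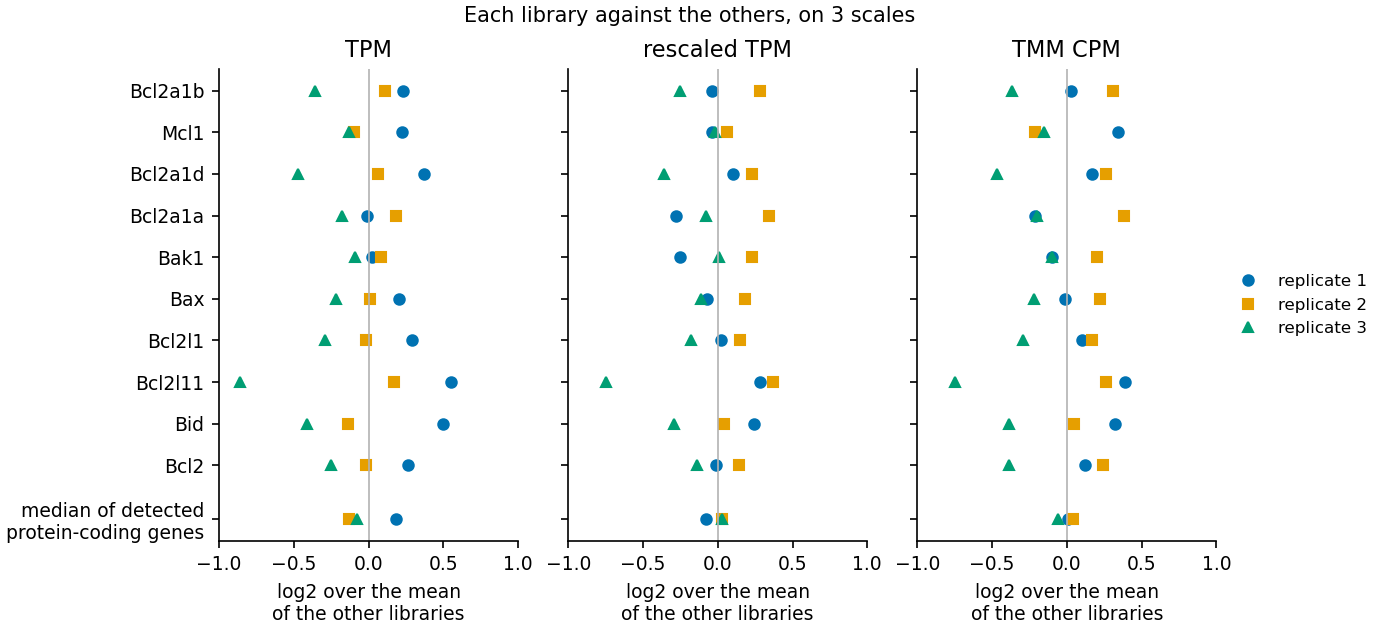
Log2 ratio of each library to the mean of the other libraries for the 10 genes, and the median over 8612 protein-coding genes with at least 1 TPM in all libraries, on TPM, rescaled TPM and TMM-scaled CPM. Replicate 3 of Bcl2l11 lies at -0.86, -0.75 and -0.75, and replicate 3 of the other genes lies closer to 0.

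Among 14 other BCL2 family genes, 6 reached 1 TPM in all libraries, beside 39.1% of protein-coding genes. Of 8 with enough counts 6 passed the chi-square test between libraries, beside 71.6% of all genes tested, so both counts lay near those of genes at large. Bad, a BH3-only gene, had 10.8, 9.56 and 9.76 TPM in replicates 1, 2 and 3. Pmaip1, the gene of the MCL1-binding protein NOXA, had 15.0, 4.51 and 5.10 TPM, with replicate 1 well above the others. Bbc3, the gene of the p53-induced PUMA, averaged 3.88 ± 0.616 TPM. Bcl2l13 averaged 5.96 ± 0.512 TPM, Bcl2l2, the pro-survival BCL-W, 5.32 ± 0.864 TPM and Bcl2l12 2.80 ± 0.485 TPM. The BH3-only genes Bmf and Bik averaged 0.0767 and 0.04 TPM, Bcl2l14 0.06 TPM and Bcl2l15 0.03 TPM. Bok, Bcl2l10 and the BH3-only Hrk were listed at 0 in all gene tables.

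Among 18 genes of the mitochondrial channels and released factors, the apoptosome, the caspases and their inhibitors, 16 reached 1 TPM in all libraries, and 14 of 18 passed the chi-square test between libraries. The highest were Vdac2 at 74.6 ± 8.09 TPM, Vdac3 at 47.9 ± 6.91 and Vdac1 at 35.4 ± 0.913, channels of the outer mitochondrial membrane, and Birc3, the gene of the ubiquitin ligase cIAP2, at 55.1 ± 6.96. The lowest was Endog, a mitochondrial nuclease, at 0.633 ± 0.0379 TPM. Among 17 regulators of the family, 16 reached 1 TPM and 14 passed the test. Tmbim6, the gene of BAX inhibitor 1, was the highest at 193 ± 21.3 TPM. It was followed by Ywhaz, a 14-3-3 protein, at 99.7 ± 22.7 TPM, Dynll1, a dynein light chain that binds BIM, at 68.8 ± 8.57 TPM, and Bag1, a chaperone partner that binds BCL2, at 56.4 ± 8.50 TPM. Trim17, a ubiquitin ligase of MCL1, was the lowest at 0.0633 ± 0.0493 TPM. For the limit of 1 TPM, the share of protein-coding genes at large was 39.1%, lower than in either list. For the chi-square test, 14 of 18 and 14 of 17 were not far above the 71.6% of all genes tested that passed.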

How the data were processed

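The authors deposited, for each library, a gene table and 2 transcript tables on mm10 with GENCODE annotation M21. Per the file headers, expected counts and TPM fill the gene table and the first of the transcript tables, with posterior mean TPM, posterior SDs and interval bounds (other values, whose level is not stated) in the gene table. Per the file headers, the authors' second transcript table has TPM and estimated counts. The deposited file lists trace the first kind to transcriptome alignments and the second to reads. Which aligner and quantifiers were used is not given in the sources used here. Deposited TPM cover all rows.

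Genes were matched to symbols by versioned ID through the second transcript table, whose values were summed per gene. Rows that name no mouse gene held 0.35%, 0.169% and 0.168% of the expected counts and were left out of library sizes. Expected counts were rounded for the chi-square test, which left out genes under 10 counts in every library. TMM scaling used edgeR 4.0.16, and DESeq2 1.42.0 size factors were an alternative (in R 4.3.3, with scipy 1.17.1, pandas 2.3.3, numpy 2.4.6 and matplotlib 3.10.9 under Python 3.11.15). Rescaled TPM have their total over protein-coding and long noncoding genes alone. With 1 group, no test between conditions was made. SDs measure only the spread between these libraries.

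Named are all 10 genes, all 14 other family genes, the 4 highest and the lowest of the lists of mitochondrial and caspase genes and of regulators, and each gene's leading transcript with any that averaged at least 10% in either quantification. The genes, lists and tests were chosen with earlier results of these data known. Posterior mean TPM, the rescaled second quantification and the Mcl1 to Bcl2l11 ratio were added as alternatives after seeing the data.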

Additional observations from a re-analysis of the deposited data

How the results depend on the processing

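The summed Bcl2a1 TPM of 471 was 221 in the second quantification, 1604 on rescaled TPM and 1510 on rescaled TPM of the second quantification. The rescaled values differ from 471 by construction, since fewer genes fill the total, and the cause of the difference between 471 and 221 was not tested. The log2 ratio of pro-survival to effector TPM of 2.75 was 0.12 as a mean of log2(TPM + 1) over each role, -0.02 with a pseudocount of 0.1, 1.02 without the Bcl2a1 copies and 2.28 with Bcl2l11 and Bid added to the effectors. It was 2.77 in the second quantification and 2.74 on posterior mean TPM. Leaving out each library gave 443 to 510 TPM for the Bcl2a1 sum, 53.8% to 54.2% for the Bcl2a1b share, 2.70 to 2.80 for the ratio, 9 in each case for the genes at 1 TPM, and 8 to 10 genes that differed between libraries, beside 52.4% to 56.6% of all genes tested. The number of genes at the limit was 10 on rescaled TPM, at 0.5 TPM and above 0, and 9 at 5 TPM and in the second quantification. All 10 genes differed between libraries with DESeq2 size factors, beside 71.8% of all genes tested, without the filter, beside 50%, and on the second quantification's counts, beside 82.2%. The log2 ratio of Mcl1 to Bcl2l11 TPM of 2.70 was 2.97 in the second quantification and 2.45 without replicate 3. The mean TPM of all 10 genes and 5 of 7 leading transcript shares moved by more than 1 SD in the second quantification. With TPM rescaled in both quantifications, only Mcl1 and Bcl2 moved by more than 1 SD. Mcl1 stood at 563 ± 14.1 and 712 TPM and Bcl2 at 3.03 ± 0.199 and 3.24 TPM. No paired analysis was possible because the labels give 1 group. Depth limits Bcl2 most, with 312, 730 and 335 expected counts.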

Other observations

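Some minor transcripts of the family were highest in replicate 3, the library with the most Malat1. They were picked after their values were seen. Bcl2l1-205, a transcript of 2232 bases whose annotation lacks an end and of which 58.2% lies outside the exons of Bcl2l1-202, had 0.07, 0.02 and 1.14 TPM in replicates 1, 2 and 3, from 6.07, 5.38 and 158 expected counts, and 15.9, 8.52 and 228 estimated counts in the second quantification. Bcl2-202, of which 69.2% lies outside the exons of Bcl2-201, had 0.05, 0.02 and 0.16 TPM, from 6.48, 5.64 and 28.7 expected counts, and 15.4, 29.6 and 61.8 estimated counts in the second quantification. Neat1, another nuclear noncoding RNA, had 14.3, 10.9 and 55.6 TPM. Not all minor transcripts were highest in replicate 3. Bcl2l1-209, annotated without a coding sequence, had 0.46, 0.45 and 0 TPM, and was lowest in replicate 3 in the second quantification too. Bax-206, annotated as a retained intron, had 0.39, 0.24 and 0.32 TPM. In the second quantification it was highest in replicate 3, at 0.225, 0.16 and 0.482 TPM. The part of unspliced or nuclear RNA in these transcripts was not tested.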
